A study of Homo sapiens with 4 samples.

Results

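The HOX cluster genes were taken as every row of the expression tables whose symbol is HOXA, HOXB, HOXC or HOXD followed by a number. The rule found 39 of 18398 rows, with 11 genes of the HOXA cluster, 10 of HOXB, 9 of HOXC and 9 of HOXD. RNA was sequenced from the cell lines Huh1 and Huh7, which are established lines of human hepatocellular carcinoma. Each line had been transfected with 15 nM of the control NCsiRNA or of CDCA8-1siRNA against CDCA8, a subunit of the chromosomal passenger complex of mitosis. The gene changes are described by the study for a treatment of 48 h. There were 4 libraries, 1 for each line and siRNA, so no spread between replicates of a condition could be measured. Each value is in RPKM, which divides reads by transcript length and by library depth. RPKM does not correct for differences in RNA composition between libraries, and some calls between the lines changed under quantile normalization, as given below. A gene was called on at 1 RPKM or more.

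HOX genes encode transcription factors that bind DNA through a homeodomain. They are known for giving cells their position along the head-to-tail axis of the embryo, and later the axes of limb, gut and genital tract. The clusters arose by duplication, so genes with the same number in different clusters are paralogs. Low numbers lie at the 3′ end of a cluster and are used early and toward the head, while high numbers lie at the 5′ end and are used late and toward the tail. HOX proteins bind DNA together with PBX and MEIS proteins, Polycomb complexes keep the clusters silent, MLL complexes keep them active, and retinoic acid induces the 3′ genes.

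On GRCh38, HOXA spanned 106.8 kb on chromosome 7, HOXB 200.7 kb on chromosome 17, HOXC 116.6 kb on chromosome 12 and HOXD 98.0 kb on chromosome 2, measured over the transcripts of the files. The homeobox, the part of the mRNA that encodes the homeodomain, was found in the transcripts of all 39 genes and is 180 bases long. Its end encodes the third helix, which lies in the major groove of DNA. The last 45 bases are shown for 2 pairs of paralogs. HOXA10 and HOXC10 were the highest HOX genes of Huh7, and HOXA13 was higher in Huh1 while HOXC13 was higher in Huh7. The letters are 5′ to 3′ on the coding strand, from GENCODE release 29 transcripts, and capitals mark the bases at which a gene differs from its paralog.
HOXA10: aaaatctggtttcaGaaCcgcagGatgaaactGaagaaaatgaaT
HOXC10: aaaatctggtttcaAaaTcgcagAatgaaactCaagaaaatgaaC
HOXA13: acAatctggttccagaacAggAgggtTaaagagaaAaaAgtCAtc
HOXC13: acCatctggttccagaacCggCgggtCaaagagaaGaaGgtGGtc
HOXA10 differed from HOXC10 at 5 of these bases and HOXA13 from HOXC13 at 8. Over the whole homeobox, paralogs shared a median of 81.7% of bases (42 pairs), against 61.4% for genes of the same cluster (172 pairs) and 60% for the remaining 527 pairs. In whole transcripts, the longest exact stretch shared by any members was 62 bases, between HOXB3 and HOXD3, of which HOXD3 was at 0 throughout and HOXB3 at no more than 0.145 RPKM. HOXB6 and HOXB7 shared 51 bases, HOXB4 and HOXB5 shared 50, and HOXA6 and HOXA7 shared 41. How the authors assigned reads that align to more than 1 place is not stated, and 9 of the 117 member values above 0 corresponded to less than 0.5 of a read.

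CDCA8 itself, the target of the siRNA, was at 24.1 RPKM in Huh1 with NCsiRNA and at 5.86 RPKM with CDCA8-1siRNA. In Huh7 it was at 51.5 RPKM and 7.36 RPKM. The libraries held between 12199700 and 13384500 reads by the estimated value of a single read. All 15 hepatocyte markers examined were on in at least 1 library, among them ALB (serum albumin) at 3447 and 2684 RPKM in Huh1 and at 1166 and 721 RPKM in Huh7. AFP (alpha-fetoprotein) lay the other way, at 24.8 and 27.5 RPKM in Huh1 and at 865 and 715 RPKM in Huh7. Of the 15 markers, 4 were higher and 10 lower in Huh7 by the limma fit described below, against 42.5% and 28.7% of all genes tested. None of 4 endothelial or 5 leukocyte markers reached 1 RPKM in any of the 4 libraries, and CDH5 and TEK were listed at 0 throughout. Of 7 fibroblast markers, 5 did so in at least 1 library. Their summed level was 12.1 and 25.9 RPKM in Huh1 against 299 and 387 RPKM in Huh7. In Huh1 most of it was LUM, at 11.95 and 25.6 RPKM. COL1A1 was at 0.115 and 0.122 RPKM in Huh1 and at 107 and 125 RPKM in Huh7. DCN was at 0 in both Huh1 libraries and at 0.136 and 0.406 RPKM in Huh7. These markers moved with the cell line, as the HOX genes did, and their part in the HOX differences was not tested.

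The 2 lines shared some of the HOX genes they had on and differed in others. With NCsiRNA, Huh1 had 6 of 11 HOXA genes on, 1 HOXB gene (HOXB7) and 1 HOXC gene (HOXC13), Huh7 had 8 HOXA genes, 7 of 9 HOXC genes and no HOXB gene, and HOXD was off in both. With NCsiRNA, 8 of 39 HOX genes were on in Huh1 and 15 in Huh7. With CDCA8-1siRNA, 7 were on in Huh1, HOXB6 among them, and 17 in Huh7. At 0.5 RPKM in place of 1 RPKM, 12 and 13 genes would count as on in the Huh1 libraries, with NCsiRNA first. Of all rows in the tables, 58.4% to 62.0% were on, against 17.9% to 43.6% of the HOX genes. Levels were low also where a gene was on. The highest member, HOXC10 at 10.4 RPKM in Huh7 with CDCA8-1siRNA, stood under the median of 12.4 RPKM over all genes that were on in that library. The summed HOX level was 27.1 and 31.9 RPKM in Huh1 and 71.0 and 83.3 RPKM in Huh7, with NCsiRNA first. It rested on 845 and 913 reads in Huh1 and on 1841 and 2128 reads in Huh7. HOXA made up 72.5% of the sum in Huh1 with NCsiRNA, HOXB 15.5%, HOXC 11.9% and HOXD 0.139%. In Huh7 with NCsiRNA the shares were 56.2% for HOXA, 0.522% for HOXB, 41.2% for HOXC and 2.09% for HOXD. As cells were measured in bulk, fewer expressing cells and less RNA per cell cannot be told apart.

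**Figure D1:**
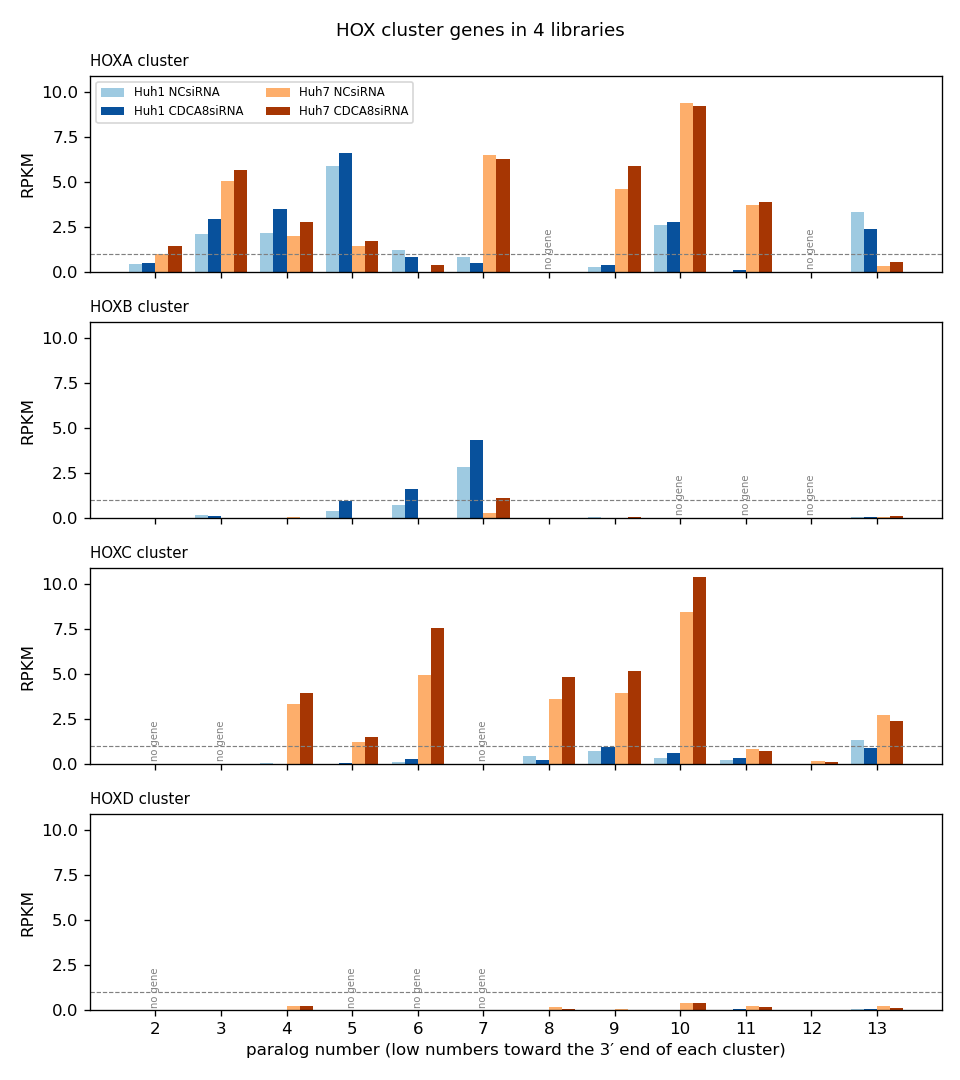
Level of each HOX gene in RPKM (linear axis) by paralog number from 2 to 13, 1 panel per cluster and 1 bar per library. The dashed line marks 1 RPKM. HOXA bars stand in both lines with different genes highest, HOXA5 in Huh1 and HOXA10 in Huh7. HOXB bars stand mainly in Huh1 and HOXC bars mainly in Huh7. No HOXD bar reaches the line.

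In total, 20 members were on in at least 1 library and 19 were under 1 RPKM in all 4. The off group held all 9 HOXD genes, 8 of 10 HOXB genes, and HOXC11 and HOXC12. HOXB1, HOXB2, HOXD3 and HOXD12 were listed at 0 in every library. Among the off HOXD genes the highest value was 0.407 RPKM, for HOXD10 in Huh7 with CDCA8-1siRNA. Summed over the cluster, HOXD rested on 1 read and 3 reads in the Huh1 libraries, and on 33 and 25 in those of Huh7. HOXC11 came nearest to being on among the off HOXC genes, at 0.220 and 0.349 RPKM in Huh1 and at 0.818 and 0.747 RPKM in Huh7. HOXA3, HOXA4, HOXA5 and HOXA10 were the 4 members on in all 4 libraries.

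To ask whether levels differed between the lines by more than the 4 libraries varied otherwise, limma was fitted across 12148 genes with the siRNA as a covariate. Each line had 2 libraries there, which differ in siRNA and are not replicates of a condition, and 1 residual degree of freedom was left. Of the 20 members that passed the filter, 14 were higher and 5 lower in Huh7 at an adjusted p under 0.05 (limma, Benjamini-Hochberg), against 42.5% and 28.7% of all genes tested. The Huh1 and Huh7 libraries did not overlap for 14 members that were higher in Huh7 and 5 that were higher in Huh1, against 47.4% and 33.1% of all genes tested. Of the 20 members, 6 were on in at least 1 library of each line and 14 in 1 line only. Of all 12148 genes tested, 10357 were on in at least 1 library of each line. A gene on in 1 line only passed the filter through the line in which it was high. The counts, and the medians given next, therefore only describe the pattern. The median difference was 1.34 over the 20 members and 0.14 over all genes tested. The differences below are on the scale of log2(RPKM + 1), Huh7 minus Huh1, with their standard errors.

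**Figure D2:**
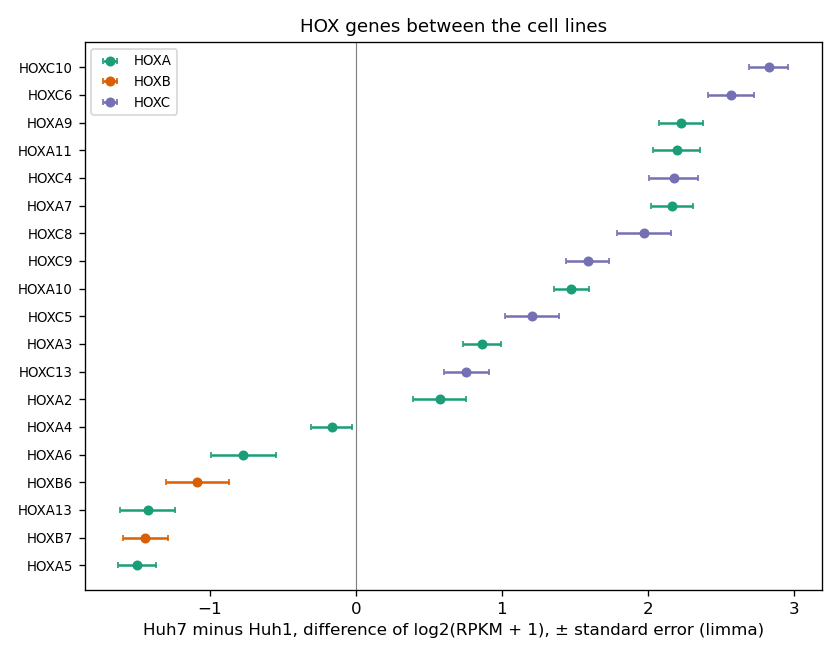
Difference of log2(RPKM + 1), Huh7 minus Huh1, for 19 HOX genes on in at least 1 library, with the standard error from limma as bars and colors for the cluster. All 7 HOXC genes lie on the Huh7 side and both HOXB genes on the Huh1 side. HOXA genes lie on both sides, from HOXA5 at -1.50 to HOXA9 at 2.23.

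At the 3′ end of HOXA, Huh7 was higher. HOXA2, a selector gene of the pharyngeal arches, was at 0.462 and 0.469 RPKM in Huh1 and at 0.968 and 1.42 RPKM in Huh7, with a difference of 0.57 (SE 0.18, adjusted p = 0.0190 from limma). This call was lost under quantile normalization, with a difference of 0.09 (adjusted p = 0.682 from limma). HOXA3, needed for thymus and parathyroid, was at 2.09 and 2.94 RPKM in Huh1 and at 5.03 and 5.67 RPKM in Huh7. It was on in both lines, and Huh7 was higher by 0.86 (SE 0.13, adjusted p = 0.000377 from limma).

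In the middle of HOXA the order turned. HOXA4 did not pass the test, at 2.16 and 3.51 RPKM in Huh1 and at 1.99 and 2.79 RPKM in Huh7 (difference -0.17, SE 0.14, adjusted p = 0.313 from limma). With NCsiRNA its ratio of Huh7 to Huh1 was 0.922, with an interval of counting error from 0.597 to 1.42. Under quantile normalization HOXA4 was called lower in Huh7, at -0.45 (adjusted p = 0.0167 from limma). HOXA5, best known from lung development and on chromosome 7 from 27141052 to 27143668, was the highest HOX gene of Huh1. It was at 5.90 and 6.62 RPKM there and at 1.44 and 1.70 RPKM in Huh7, a difference of -1.50 (SE 0.13, adjusted p = 1.14e-05 from limma). HOXA6 was at 1.21 and 0.851 RPKM in Huh1, listed at 0 in Huh7 with NCsiRNA and at 0.407 RPKM in Huh7 with CDCA8-1siRNA. It rested on 16 and 11 reads in Huh1 and on 0 and 5 in Huh7. With NCsiRNA it was at least 4.87-fold lower in Huh7, taking 3 reads as the floor of that library. With CDCA8-1siRNA both lines were under 1 RPKM, and its ratio of Huh7 to Huh1 was 0.478 (interval 0.133 to 1.53).

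HOXA7, the next gene toward the 5′ end, was high in Huh7 again. It lies from 27153716 to 27156677 and was at 0.816 and 0.489 RPKM in Huh1 and at 6.47 and 6.27 RPKM in Huh7 (difference 2.16, SE 0.14, adjusted p = 2.45e-06 from limma). Of its exon bases, 74.7% also lie in exons of HOXA-AS3 on the opposite strand. The kit does not mark strand, so reads of HOXA7 and HOXA-AS3 cannot be told apart. The same limit holds for HOXA6, of which 21.1% of exon bases lie in exons of HOXA-AS3. HOXA9, a regulator of blood progenitors, was at 0.254 and 0.405 RPKM in Huh1 and at 4.61 and 5.91 RPKM in Huh7, 18.1-fold higher with NCsiRNA (interval 8.55 to 46.2). Its difference in the fit was 2.23 (SE 0.15, adjusted p = 2.46e-06 from limma).

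At the 5′ end of HOXA, the lines parted between HOXA11 and HOXA13. HOXA10, which acts in the uterus and limb, was on in both and was the highest HOX gene of Huh7 with NCsiRNA. It was at 2.62 and 2.77 RPKM in Huh1 and at 9.39 and 9.20 RPKM in Huh7 (difference 1.48, SE 0.12, adjusted p = 7.33e-06 from limma). HOXA11, its neighbor with related roles, was at 0.0061 and 0.0857 RPKM in Huh1 and at 3.71 and 3.90 RPKM in Huh7. That was 0 and 3 reads against 104 and 110 reads, so that with NCsiRNA Huh7 was at least 38.0-fold higher over a floor of 3 reads (difference 2.20, SE 0.16, adjusted p = 4.19e-06 from limma). HOXA11 shares 30.9% of its exon bases with HOXA11-AS and HOXA10 shares 23.9% with HOXA10-AS, both on the opposite strand. HOXA13, which forms hand, foot and genital tract and lies from 27194364 to 27200106, had the reverse pattern. It was at 3.34 and 2.38 RPKM in Huh1 and at 0.311 and 0.553 RPKM in Huh7, resting on 225 and 158 reads against 19 and 34 reads. The difference was -1.42 (SE 0.19, adjusted p = 0.000164 from limma). In Huh1 the cluster was thus on at HOXA10, off at HOXA11 and on at HOXA13.

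The window around the start of HOXA13, the 5′ gene that was higher in Huh1, is shown as the most CpG-rich of the HOX windows examined, chr7:27200042-27200341 on the minus strand of GRCh38.p14, from RefSeq. It covers 250 bases before and 50 after the start and holds 44 CpG dinucleotides, against a median of 22 over 27 HOX windows and 14 over 35116 windows of all genes. It holds neither TTTAT nor TGATNNAT, motifs described below with HOXC4, and so has no capitals.
HOXA13: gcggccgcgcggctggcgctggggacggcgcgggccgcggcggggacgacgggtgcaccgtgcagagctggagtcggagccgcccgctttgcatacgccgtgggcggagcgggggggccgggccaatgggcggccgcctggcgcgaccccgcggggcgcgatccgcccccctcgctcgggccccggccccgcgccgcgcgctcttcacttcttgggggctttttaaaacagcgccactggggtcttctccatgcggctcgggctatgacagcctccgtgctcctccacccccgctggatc

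In HOXB, only the neighbors HOXB6 and HOXB7 were on in any library, and both were higher in Huh1. HOXB7, which has been studied as a growth-promoting gene in tumors, lies on chromosome 17 from 48607227 to 48611020. It was at 2.84 and 4.33 RPKM in Huh1 and at 0.300 and 1.13 RPKM in Huh7, with a difference of -1.44 (SE 0.16, adjusted p = 4.54e-05 from limma). HOXB6 was at 0.713 and 1.63 RPKM in Huh1 and was listed at 0 in both Huh7 libraries, on 16 and 36 reads against none. With CDCA8-1siRNA it was thus at least 11.1-fold lower in Huh7 over a floor of 3 reads (adjusted p = 0.00181 from limma, both siRNAs). HOXB5 stayed under the threshold, at 0.390 and 0.916 RPKM in Huh1 and at 0.0087 and 0.0075 RPKM in Huh7, and the remaining 7 HOXB genes did not pass 0.145 RPKM in any library.

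All HOXC genes that were on in any library were higher in Huh7. HOXC10, a gene of lumbar motor neurons and hindlimb on chromosome 12 from 53985186 to 53990279, was at 0.310 and 0.619 RPKM in Huh1 and at 8.45 and 10.4 RPKM in Huh7. The difference was 2.83 (SE 0.13, adjusted p = 2.96e-07 from limma), and the ratio with NCsiRNA was 27.3 (interval 13.7 to 64.4). It was the largest of the 20 members with a pseudocount of 1 RPKM, but with 0.1 RPKM the differences of HOXC4 (4.94), HOXA11 (4.80) and HOXC6 (4.40) exceeded that of HOXC10 (4.12). HOXC6, a gene of the thoracic region, was at 0.133 and 0.271 RPKM in Huh1 and at 4.93 and 7.57 RPKM in Huh7 (difference 2.57, SE 0.16, adjusted p = 1.58e-06 from limma). HOXC8 and HOXC9 act in motor neurons at forelimb and thoracic levels. HOXC8 was at 0.449 and 0.198 RPKM in Huh1 and at 3.62 and 4.81 RPKM in Huh7. HOXC9 was at 0.727 and 0.943 RPKM in Huh1 and at 3.94 and 5.14 RPKM in Huh7. Their differences were 1.98 (SE 0.18) and 1.59 (SE 0.14), with adjusted p = 1.84e-05 and 1.58e-05 from limma.

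At the 3′ end of HOXC, HOXC4 and HOXC5 were almost without reads in Huh1. HOXC4 was at 0.0487 and 0 RPKM there and at 3.35 and 3.95 RPKM in Huh7, on 1 and 0 reads against 62 and 74 reads. HOXC5 was at 0 and 0.0470 RPKM in Huh1 and at 1.22 and 1.52 RPKM in Huh7, on 0 and 1 reads against 27 and 34 reads. Both were higher in Huh7 by the fit, by 2.18 (SE 0.17, adjusted p = 5.71e-06) and 1.21 (SE 0.18, adjusted p = 0.000389, limma). These genes are annotated across each other, and HOXC4 shares 31.8% of its exon bases with transcripts of HOXC6 and 20.0% with transcripts of HOXC5 on the same strand, so reads may have been split among them. At the 5′ end, HOXC13, a gene of hair and nail, was the only HOXC gene to reach 1 RPKM in Huh1. It was at 1.34 and 0.886 RPKM in Huh1 and at 2.74 and 2.38 RPKM in Huh7, a difference of 0.76 (SE 0.15, adjusted p = 0.00192 from limma).

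RefSeq gives HOXC4 and HOXC5 the same start window, chr12:54016638-54016937 on the plus strand of GRCh38.p14, and it is shown because these genes were on together in Huh7. The HOXC4 transcript measured here starts in this window, at 54016931. The HOXC5 transcript measured here starts at 54032853, outside the window, so the window is not the start of that transcript. Capitals mark TTTAT on either strand, the core that HOX proteins of the 5′ end and CDX proteins bind.
HOXC4 and HOXC5: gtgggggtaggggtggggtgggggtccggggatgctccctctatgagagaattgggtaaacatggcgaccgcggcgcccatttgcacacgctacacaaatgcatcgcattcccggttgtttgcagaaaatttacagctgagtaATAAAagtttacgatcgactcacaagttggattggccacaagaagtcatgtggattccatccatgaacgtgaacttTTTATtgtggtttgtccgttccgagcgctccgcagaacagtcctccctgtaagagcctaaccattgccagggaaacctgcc
Start windows were found for 20 of the 39 genes, 27 windows in all, several of them for HOXA3. The window shared by HOXC4 and HOXC5 was counted for each of them, so the windows are not independent. TTTAT was present on at least 1 strand in 15 of the 27 windows (55.6%), against 34.9% of 35116 windows of all genes. TGATNNAT, a site of PBX with HOX proteins, was present in 3 (11.1%), against 7.4%. Both motifs were searched on both strands and may overlap in their letters, and a match is not evidence of binding.

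With NCsiRNA, the leading member differed between the lines in paralog groups 4, 6, 7, 9, 11 and 13. In groups 6, 7 and 13 the summed level differed less between the lines, as a ratio, than did the leading member of each line. In groups 4, 9 and 11 it differed more than did the leading member of Huh1. In group 13 the sum with NCsiRNA was 4.79 RPKM in Huh1, mainly HOXA13, and 3.29 RPKM in Huh7, mainly HOXC13. In group 7 it was 3.66 RPKM in Huh1, mainly HOXB7, and 6.77 RPKM in Huh7, mainly HOXA7. In group 9 it was 1.01 RPKM in Huh1, led by HOXC9, and 8.64 RPKM in Huh7, led by HOXA9. In group 4 it was 2.21 RPKM in Huh1, led by HOXA4, and 5.62 RPKM in Huh7, led by HOXC4. Group 10, led by HOXA10 in both lines, was at 2.93 RPKM in Huh1 and 18.2 RPKM in Huh7. Across the 39 genes, log2(RPKM + 1) was correlated between Huh1 and Huh7 with NCsiRNA at 0.342 (Pearson's r) and 0.504 (Spearman's rho). Between the siRNAs r was 0.963 and rho 0.902 in Huh1, while r was 0.987 and rho 0.964 in Huh7. The points are genes measured in the same libraries, of which 4 are at 0 in all, and are not independent.

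The next comparison asked whether depletion of CDCA8 altered HOX expression within each line. No HOX gene changed by 2-fold on the log2(RPKM + 1) scale in either line. In Huh1, 0 of 9 members that passed the filter were at least 2-fold higher and 0 were at least 2-fold lower, against 0.32% and 0.174% of 10940 genes. In Huh7 the counts were 0 and 0 of 17, against 0.873% and 0.7% of 11565 genes. Most small differences were upward. In Huh7, 14 of 17 members were higher, with a median log2 change of 0.19, where 54.5% of all genes tested were higher with a median of 0.03. In Huh1, 6 of 9 were higher, with a median of 0.14, against 55.1% of all genes and their median of 0.02. In Huh7, HOXA2 and HOXB7 passed the filter only through the CDCA8-1siRNA library, in which they were higher. In Huh1 the same held for HOXB6, while HOXA6 and HOXC13 passed only through the NCsiRNA library, in which they were higher. The direction of these genes thus followed from the filter, and the counts only describe the pattern. All these values compare 1 library with 1 library, and no test within a line was possible.

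**Figure D3:**
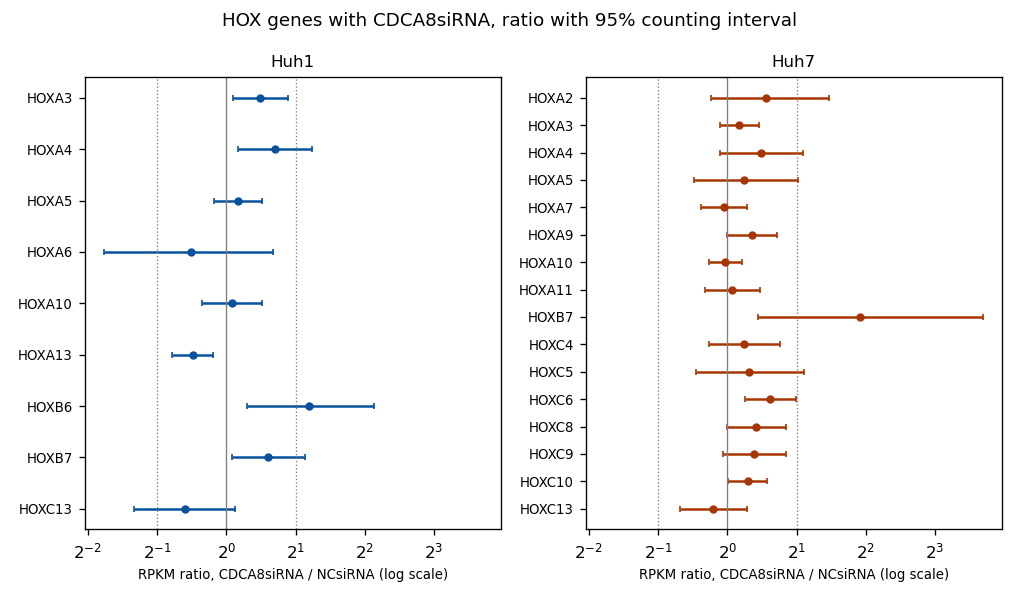
Ratio of RPKM with CDCA8-1siRNA to NCsiRNA (log scale) for the HOX genes that passed the filter, with 9 drawn in Huh1 and 16 in Huh7 and 95% intervals of counting error. Dotted lines mark a ratio of 2 and of its inverse. The point of HOXB6 in Huh1 and that of HOXB7 in Huh7 lie beyond 2, and most others lie between 1 and 2.

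By the plain ratio, which adds no constant, 1 member passed 2-fold in each line, both of HOXB. Each of them passed the filter only through the CDCA8-1siRNA library, in which it was high. In Huh1, HOXB6 went from 0.713 to 1.63 RPKM, a ratio of 2.28 (interval 1.23 to 4.41), where 1.2% of all genes had a ratio of at least 2. In Huh7, HOXB7 went from 0.300 to 1.13 RPKM on 5 and 19 reads, a ratio of 3.78 (interval 1.36 to 12.95), where 2.52% of all genes did. HOXB7 also went up in Huh1, from 52 to 78 reads, with a ratio of 1.52 (interval 1.06 to 2.21). HOXB6 shares 18.4% of its exon bases with HOXB-AS3 on the opposite strand and 11.3% with transcripts of HOXB3 on the same strand. HOXB5 shares 3.6% with HOXB-AS3, and strand was not marked. HOXB5 had 11 and 25 reads in Huh1. The summed level of HOXB5, HOXB6 and HOXB7 there was 3.95 RPKM with NCsiRNA and 6.88 RPKM with CDCA8-1siRNA. HOXB7 was the only one of these genes that could be tested over both lines.

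Among HOXA genes, HOXA4 had a ratio of 1.62 in Huh1 (interval 1.13 to 2.36) and 1.40 in Huh7 (interval 0.925 to 2.13). HOXA3 had 1.41 in Huh1 (interval 1.06 to 1.86) and 1.13 in Huh7 (interval 0.929 to 1.37). HOXA13 went the other way in Huh1, with a ratio of 0.713 (interval 0.578 to 0.877). HOXA10 was near 1 in both lines, at 1.06 in Huh1 (interval 0.784 to 1.43) and 0.979 in Huh7 (interval 0.830 to 1.16), and HOXA7 was at 0.969 in Huh7 (interval 0.772 to 1.22). Among HOXC genes in Huh7, HOXC6 had a ratio of 1.54 (interval 1.20 to 1.99), HOXC8 1.33 (interval 1.00 to 1.8) and HOXC10 1.23 (interval 1.01 to 1.48), while HOXC13 had 0.870 (interval 0.625 to 1.21). The summed HOXC level was 29.3 RPKM with NCsiRNA and 36.6 RPKM with CDCA8-1siRNA in Huh7. Counting intervals excluded a ratio of 1 for 5 of 9 members in Huh1 and 4 of 17 in Huh7, against 43.4% and 53.3% of all genes with a transcript length, and these intervals hold no variation between cultures.

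Over both lines, limma with the cell line as a covariate could test the 6 members that were on in at least 1 library of each line. It asks whether Huh1 and Huh7 moved alike, with 1 residual degree of freedom. HOXB7 was higher with CDCA8-1siRNA, with a log2 change of 0.59 (SE 0.15, adjusted p = 0.0383 from limma). In Huh7 it passed the filter only through the CDCA8-1siRNA library, so that its entry into the test depended on the higher value. This was 1 of 6 members called higher and 0 called lower, against 6.03% and 4.21% of 10357 genes. The call did not hold with a pseudocount of 0.1 RPKM (adjusted p = 0.0533) or under quantile normalization (adjusted p = 0.0647, limma). The remaining 5 were not called, with log2 changes of 0.43 for HOXA4 (SE 0.14, adjusted p = 0.0851), 0.25 for HOXA3 (SE 0.13, adjusted p = 0.270), 0.15 for HOXA5 (SE 0.13, adjusted p = 0.516), 0.02 for HOXA10 (SE 0.12, adjusted p = 0.947) and -0.23 for HOXC13 (SE 0.15, adjusted p = 0.371, limma). At an unadjusted p under 0.05 there were 2 members, HOXB7 and HOXA4. In the same fit 9 of 15 hepatocyte markers were lower and 0 higher with CDCA8-1siRNA, and LUM, the 1 fibroblast marker that could be tested, was higher, at 11.95 and 25.6 RPKM in Huh1 and at 143 and 190 RPKM in Huh7 (log2 change 0.72, SE 0.14, adjusted p = 0.0130 from limma). The part of these changes in those of the HOX genes was not tested.

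Other genes of HOX regulation were read against the shares of all genes, 42.5% higher and 28.7% lower in Huh7 with a median difference of 0.14, and 6.03% higher and 4.21% lower with CDCA8-1siRNA. Of 7 PBX, MEIS and PKNOX genes tested between lines, 6 were higher in Huh7 and 0 lower, with a median difference of 1.10. Their proteins bind DNA with HOX proteins. Of the 7, 2 passed the filter only through Huh7. MEIS2 was at 4.33 and 4.74 RPKM in Huh1 and at 15.9 and 13.5 RPKM in Huh7 (difference 1.50, SE 0.12, adjusted p = 8.16e-06 from limma). PKNOX1 did not pass the test, with a difference of 0.02. With CDCA8-1siRNA, 0 of the 5 tested were called in either direction.

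Among regulators of HOX clusters, CDX2, an intestinal transcription factor that activates HOX genes, was at 0.0357 and 0.0363 RPKM in Huh1 and at 1.22 and 1.17 RPKM in Huh7 (difference 1.08, SE 0.19, adjusted p = 0.000776 from limma). GDF11, a secreted factor that acts on the 5′ genes, was at 2.00 and 1.82 RPKM in Huh1 and at 6.64 and 6.64 RPKM in Huh7 (adjusted p = 1.61e-05 from limma). With GMNN (geminin), which was also higher, 3 of 4 genes of this list were higher in Huh7 and 0 lower, against 42.5% and 28.7% of all genes, and CDX2 passed the filter only through Huh7. Of 11 retinoic acid genes tested, 2 were higher and 7 lower in Huh7 (all genes 42.5% and 28.7%), with a median difference of -1.12. Of the 11, 1 passed the filter only through Huh1 (CYP26A1) and 1 only through Huh7. The receptor gene RARB was at 10.04 and 9.84 RPKM in Huh1 and at 1.32 and 2.81 RPKM in Huh7, and CYP26A1, which degrades retinoic acid and responds to it, was at 4.69 and 2.72 RPKM in Huh1 and at 0.426 and 0.308 RPKM in Huh7. CYP26B1, of the same family, went the other way, at 4.24 and 8.67 RPKM in Huh1 and at 18.1 and 18.6 RPKM in Huh7. None of the 9 retinoic acid genes tested with CDCA8-1siRNA was called by limma.

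Of 27 Polycomb genes, 14 were higher and 4 lower in Huh7, against 42.5% and 28.7% of all genes. Their median difference was 0.29, against 0.14 over all genes, and 1 of the 27 passed the filter only through Huh7. CBX8 was at 5.12 and 4.85 RPKM in Huh1 and at 11.3 and 11.1 RPKM in Huh7. With CDCA8-1siRNA, 1 of 26 Polycomb genes was higher, and 0 were lower. It was CBX6, at 8.13 and 11.4 RPKM in Huh1 and at 8.88 and 16.3 RPKM in Huh7 (log2 change 0.63, SE 0.12, adjusted p = 0.0150 from limma). In the list of MLL complexes and H3K79 methylation, 3 of 18 genes were higher with CDCA8-1siRNA and 0 lower, against 6.03% and 4.21% of all genes, with a median log2 change of -0.09. They were AFF4 (0.45, SE 0.10, adjusted p = 0.0217), DOT1L, the H3K79 methyltransferase (0.43, SE 0.10, adjusted p = 0.0330), and KDM6B, a demethylase of the Polycomb mark (0.46, SE 0.12, adjusted p = 0.0425, limma). Between lines, 6 of 19 genes of that list were higher and 2 lower in Huh7, both below the shares of all genes. MLLT3, which passed the filter only through Huh1, was at 2.89 and 3.06 RPKM in Huh1 and at 0.310 and 0.314 RPKM in Huh7.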

How the data were processed

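The tables deposited by the authors hold an RPKM value for 18398 RefSeq transcripts in each of 4 libraries, with no header. The unit is not stated and was taken from the values. Of low values multiplied by transcript length, 35.27% to 37.68% fell within 0.05 of a whole multiple of the best constant per library. Of the 117 HOX values above 0, low or high, 23 did so. The depths of 12199700 to 13384500 reads, and all read numbers, are therefore estimates. The submitters' processing notes name CASAVA 1.8.2, TopHat2 2.0.9 and the hg19 build, and the labels an Illumina TruSeq RNA kit. The counter, the annotation and the treatment of multiply aligned reads are not given in the sources used here. Positions and transcript lengths of all 39 HOX genes were read from GENCODE release 29 (GRCh38) through their RefSeq identifiers.

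Differences were taken on log2(RPKM + 1), called at 2-fold within a line, where either library of the pair had to reach 1 RPKM. limma 3.58.1 in R 4.3.3 (lmFit, then eBayes with a trend, Benjamini-Hochberg adjustment over all genes) was fitted to all 4 libraries with cell line and siRNA as terms. The filter was 1 RPKM in at least 1 library of each line for the siRNA effect and in at least 1 of the 4 libraries for the line effect. The study states that its experiments were repeated, but each condition has 1 library here, so p-values measure only the spread among these libraries. That spread was shared across genes, with 8.29 prior degrees of freedom for the siRNA effect and 7.48 for the line effect. Each p-value thus rests more on the spread of all genes than on that of the gene itself. Intervals of RPKM ratios are exact (Clopper-Pearson, 95%) for the estimated read numbers, rounded to whole reads. Like the floor of 3 reads, they cover counting error only. The steps were run on simulated data. For the limma fit, the genes changed in that run were above 1 RPKM in both lines. Genes near or under that level in 1 line, such as HOXB7 in Huh7, were not covered by it. Every HOX gene with 1 RPKM in any library was to be named, but some items are not reported here. Of each list, up to 4 genes with the largest siRNA effect and 2 with the largest line difference could be named. The HOX genes and the lists were chosen with earlier results of these data known. Alternatives were another pseudocount, filter, scaling, trend and covariate. The remaining steps ran in Python 3.11.15 (scipy 1.17.1, pandas 2.3.3, numpy 2.4.6).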

Additional observations from a re-analysis of the deposited data

Results flagged for a closer look

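For 5 HOX genes that were on in at least 1 library, the change with CDCA8-1siRNA had one sign in Huh1 and the other in Huh7. Each change compares single libraries, and the difference between the lines was not tested. On the log2(RPKM + 1) scale, HOXA13 changed by -0.36 in Huh1 and 0.24 in Huh7, HOXA6 by -0.26 and 0.49, HOXC8 by -0.27 and 0.33, HOXC4 by -0.0686 and 0.19 and HOXA10 by 0.0594 and -0.03. HOXA13 rested on 225 and 158 reads in Huh1 and on 19 and 34 reads in Huh7. The counting interval of its ratio in Huh7, 0.987 to 3.30, included 1. HOXC8 had 11 and 5 reads in Huh1, and the interval of its ratio there was 0.126 to 1.44. HOXA6 had at most 16 reads in any library, and HOXC4 had at most 1 in Huh1. The share of all genes with opposite signs is not given here.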

How the results depend on the processing

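No paired analysis by replicate number was possible because the labels carry none and each condition has 1 library, and for the same reason no replicate could be left out. The siRNA fit compared libraries within a line through its cell line term. The cause of the changes below was not tested. With 0.5 RPKM in place of 1 RPKM as the level for on, 13 genes were on in Huh1 with CDCA8-1siRNA. With a pseudocount of 0.1 RPKM, and likewise by the plain ratio, a setting chosen after seeing the data, 1 HOX gene was at least 2-fold higher in Huh1 (HOXB6) and 1 in Huh7 (HOXB7). The call of HOXB7 over both lines was lost, leaving 0 members, with a pseudocount of 0.1 RPKM, without a filter, under quantile normalization, without the cell line covariate and with the filter set to 1 RPKM in any library (adjusted p between 0.0533 and 1, limma). Without a filter, limma called 0 of all 17039 genes tested, and without the cell line covariate 0 of 10357, against 1061 of 10357 in the fit reported. The call held under upper quartile scaling and without the trend (adjusted p = 0.0330 and 0.0300, limma). HOXA10 turned in direction under quantile normalization, with a log2 change of -0.0429 over both lines (adjusted p = 0.875 from limma). With a minimum of 5 RPKM, 9 members were left between the lines, of which 8 were higher and 1 lower in Huh7. Of all 9611 genes tested in that setting, 6971 were called in either direction. No member was left there for the siRNA effect over both lines. Quantile normalization moved the median difference between the lines over all genes from 0.14 to 0.0048, and under it HOXA2 was no longer called and HOXA4 was. Of 129 differences of single members between the lines under an alternative, 127 kept their direction and their side of the threshold. Genes under about 20 reads, such as HOXA6, HOXB6 in Huh1 with NCsiRNA and HOXB7 in Huh7, are limited by depth.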

Other observations

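Of 30 genes neighboring the HOX clusters that were tested between the lines, 13 were higher and 7 lower in Huh7, near the 42.5% and 28.7% of all genes, with a median difference of 0.15 (all genes 0.14). SNX10, listed for the wider region of HOXA, was at 0.826 and 0.706 RPKM in Huh1 and at 7.19 and 6.97 RPKM in Huh7 (difference 2.19, SE 0.14, adjusted p = 1.51e-06 from limma). CHN1, listed for the wider region of HOXD, was at 0.770 and 0.841 RPKM in Huh1 and at 10.5 and 11.9 RPKM in Huh7 (difference 2.76, SE 0.13, adjusted p = 2.61e-07 from limma), and HOXD itself was off in both lines. Both genes passed the filter only through Huh7, and distances to the clusters were not measured. With CDCA8-1siRNA, 1 of 27 neighbors was higher and 1 lower, against 6.03% and 4.21% of all genes tested. TAX1BP1, an autophagy receptor gene, was higher by 0.54 (SE 0.08, adjusted p = 0.00674 from limma), and CBX3, which encodes a heterochromatin protein, was lower, with a log2 change of -0.45 (SE 0.10, adjusted p = 0.0244 from limma). SKAP2, at the 3′ side of HOXA, had a log2 change of 0.38 that did not pass (SE 0.10, adjusted p = 0.0527 from limma).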
